A study of Mus musculus with 2 samples.

Results

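The gene set described here holds 30 genes of DNA replication and S phase, taken as a given list of symbols and found once each among the 32285 features of the files. The list is fixed by name and not by any value measured here. It holds 6 subunits of the replicative helicase (Mcm2 to Mcm7), 4 factors that load or fire it (Cdc6, Cdt1, Cdc45, Gins2), 5 genes of the fork and its sliding clamp (Pcna, Pclaf, Prim1, Fen1, Clspn) and 5 of nucleotide supply (Rrm1, Rrm2, Tk1, Tyms, Dut). The others are 6 genes of chromatin and repair (Uhrf1, Hells, Chaf1b, Ung, Exo1, Slbp) and 4 regulators or centromere genes (Ccne1, Ccne2, E2f8, Cenph). The study treated mice bearing subcutaneous tumors of MC38, a colon carcinoma line of C57BL/6 mice, by injection into the tumor. Single cells of the dissociated tumors were profiled with droplet 3′ chemistry, in which each transcript molecule is counted by its unique molecular identifier (UMI). The question is whether replication genes changed in each cell compartment after agonist treatment. The untreated group received vehicle, which is saline in the methods and saline with 10% DMSO in the series record, and the MSA-2 group received MSA-2, a small-molecule agonist of the innate immune sensor STING. Both groups had 3 injections at intervals of 3 days, and the methods give day 7 for collection. Tumors of 3 mice per group were pooled before library preparation, so there is 1 library per group, the animals cannot be separated and no test between groups was possible. The methods state that cells were sorted before loading without naming a marker, and the labels call the cell type tumor cells, although the files hold immune and stromal cells as well.

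Cells about to copy their DNA load the helicase onto origins, activate it, and unwind the template while the clamp tethers polymerases and the nucleotide enzymes keep precursors in supply. Transcription of these genes is periodic: E2F factors drive it when cyclin E and its kinase inactivate the retinoblastoma protein, and it falls again as cells pass into mitosis. In tumors, the RNAs of this program mark dividing malignant cells, expanding lymphocytes and the dividing part of the macrophage pool, while neutrophils and blood monocytes divide little or not at all.

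Promoter sequences from RefSeq (build GRCm38.p6) were found for 26 of the 30 members, and the entry for Mcm4, Gins2, Exo1 and Ccne2 was not found. Windows of 250 bases before the start site were searched on both strands for the E2F letters TTTGGCGC, TTTCGCGC, TTTCCCGC and TTTGCCGC, of which a pair can overlap on opposite strands. They occurred in 6 of these 26 members (23.1%), Mcm5, Mcm6, Mcm7, Cdc6, Uhrf1 and Hells, and in 2.16% of the promoters of all 27025 genes in the table. Among the lists used for comparison they were as common in other replication genes (9 of 40, 22.5%), more common in G1/S regulators (7 of 21, 33.3%) and rare in G2 and mitosis genes (1 of 26, 3.85%). A gene was counted if any of its windows matched, and Fen1, Mcm7 and Uhrf1 have 2 windows each. The letters TTTGAA, the core of the CHR element known from late cell cycle promoters and also searched on both strands, occurred in 4 members (15.4%), in 9 of the 26 mitosis genes (34.6%) and in 18.3% of all genes. A match is a description of the letters and not of binding. The windows below, 5′ to 3′ on the strand of the gene, are those of 4 members with a match whose levels recur in the results, and of Pcna, which held none of these letters. Capitals mark the E2F letters on either strand, and in Mcm6 a pair of matches overlaps.
Mcm6, chr1:128359706-128359955 (- strand): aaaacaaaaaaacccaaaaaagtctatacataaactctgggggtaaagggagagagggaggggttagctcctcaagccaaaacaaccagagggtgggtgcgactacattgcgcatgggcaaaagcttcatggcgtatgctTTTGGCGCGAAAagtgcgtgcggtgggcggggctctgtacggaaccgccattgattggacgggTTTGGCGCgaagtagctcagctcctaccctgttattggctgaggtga
Mcm7, chr5:138171884-138172133 (- strand): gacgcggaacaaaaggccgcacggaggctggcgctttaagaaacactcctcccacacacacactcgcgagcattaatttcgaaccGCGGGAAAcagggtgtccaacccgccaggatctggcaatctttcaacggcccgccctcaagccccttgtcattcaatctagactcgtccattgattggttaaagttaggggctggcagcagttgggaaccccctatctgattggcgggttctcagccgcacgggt
Cdc6, chr11:98907901-98908150 (+ strand): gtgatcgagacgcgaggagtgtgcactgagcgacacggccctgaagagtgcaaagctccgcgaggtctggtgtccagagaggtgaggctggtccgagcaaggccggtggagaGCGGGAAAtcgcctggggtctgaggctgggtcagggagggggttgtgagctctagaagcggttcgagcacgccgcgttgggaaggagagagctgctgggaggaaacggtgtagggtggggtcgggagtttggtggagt
Hells, chr19:38930740-38930989 (+ strand): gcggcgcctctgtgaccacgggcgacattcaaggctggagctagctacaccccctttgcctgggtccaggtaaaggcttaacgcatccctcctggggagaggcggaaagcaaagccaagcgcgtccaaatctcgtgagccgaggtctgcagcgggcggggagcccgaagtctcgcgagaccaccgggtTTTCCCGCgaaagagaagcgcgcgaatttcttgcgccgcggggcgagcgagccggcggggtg
Pcna, chr2:132253181-132253430 (- strand): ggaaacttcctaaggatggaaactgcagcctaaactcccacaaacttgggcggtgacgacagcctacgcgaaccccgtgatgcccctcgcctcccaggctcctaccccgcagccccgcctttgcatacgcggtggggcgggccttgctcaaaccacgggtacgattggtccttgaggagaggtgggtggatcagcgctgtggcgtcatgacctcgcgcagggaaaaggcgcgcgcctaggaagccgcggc
The matches in Mcm6 begin 110, 106 and 47 bases before the start site, the match in Mcm7 165, that in Cdc6 138 and that in Hells 62 bases before it.

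The untreated library held 14386 barcodes with 198135335 UMIs and a median of 8372 UMIs per barcode, and the MSA-2 library 14617 barcodes with 204387165 UMIs and a median of 8661. After removal of low-quality barcodes and of 732 and 579 barcodes called as doublets, 13316 untreated and 13403 MSA-2 cells were kept. Cells were assigned by marker genes, none of which is a member. The gates held 6261 and 6661 tumor cells, 1125 and 138 T cells, 144 and 90 NK cells, 3455 and 928 macrophages, and 233 and 667 fibroblasts in untreated and MSA-2 tumors. No gate was met by 13.9% of untreated and 17.6% of MSA-2 cells. Neutrophils (19 and 1975 cells) and monocytes (140 and 467 cells) served as types that should hold few dividing cells.

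The gates are defined by their markers, so high levels of these in their own gate are given by construction. The epithelial genes read, Krt7, Krt8, Krt18, Krt19 and Epcam, were at or near 0 in the tumor gate, and other keratins were not read. Krt18 and Krt19 had 0 UMIs in the untreated library. Krt7, the highest of them, reached 0.658 CPM, the UMIs of a gene scaled by the total UMIs of the gate. The gate therefore rests on Gng11, Tm4sf1, Ccn1 and Anxa1, which together made up 3824 CPM of untreated tumor cells and 4372 CPM after MSA-2. Endothelial cells reached similar or higher levels of some of these, with Gng11 at 1480 against 1396 CPM and Tm4sf1 at 1144 against 659 CPM in untreated tumor cells. Gate genes of the other types stood at 1247 and 762 CPM in T cells (Cd3g), 23794 and 17822 in macrophages (Apoe) and 13737 and 7578 in fibroblasts (Col1a1). Those of NK cells moved apart. Gzma went from 1353 to 6031 CPM and Klrb1c from 204 to 220. Ncr1 went from 256 to 154 CPM, and Klra7, Klra8, Klre1 and Eomes were also lower. The part of this shift in the NK values of the members was not tested. Cells of the libraries share 53 barcode sequences, and results with and without them are given below. The libraries stand apart well beyond this gene set. In the tumor gate alone, 1433 genes were higher and 1075 lower by at least 1.5-fold in MSA-2 among 19659 with at least 10 UMIs, and with 1 library per group this cannot be told apart from differences between pools or preparations.

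Replication genes were most abundant in tumor cells and lymphocytes. In untreated tumors the 30 members together made up 1595 CPM of the tumor cells (exact Poisson interval at 95%, 1589 to 1602), 1428 CPM of the T cells (1393 to 1464) and 1597 CPM of the NK cells (1512 to 1686). These 3 levels lay close together, and the tumor and NK intervals overlap. Macrophages reached 775 CPM (763 to 787), fibroblasts 603 (574 to 632) and monocytes 418 (366 to 476). In MSA-2 tumors the sums were 1613 CPM in tumor cells (1606 to 1619), 2032 in T cells (1931 to 2138), 1536 in NK cells (1442 to 1634), 635 in macrophages (613 to 657), 689 in fibroblasts (673 to 705), 549 in monocytes (516 to 583) and 347 in neutrophils (329 to 367). T cells stood below the tumor cells before and above them after MSA-2, but with the stricter gate untreated T cells were already above untreated tumor cells, at 1668 against 1620 CPM. Macrophages and fibroblasts changed places. All intervals here cover counting error only and say nothing of the spread between tumors.

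RNA released by tumor cells enters every droplet, and its size was estimated from Gng11, Tm4sf1 and Ccn1, which leukocytes should lack. By these genes, RNA of tumor origin made up 11.1% of the UMIs of untreated and 11.7% of MSA-2 T cells, 8.35% and 9.88% in NK cells, 10.8% and 12.95% in macrophages, and 12.0% in MSA-2 neutrophils. At the tumor cells' own level of the members this would give 177 and 189 CPM in T cells, or 12.4% and 9.30% of the T cell sums. It would give 172 and 209 CPM in macrophages, or 22.1% and 32.9% of their sums, and 194 CPM, or 55.8% of the sum, in MSA-2 neutrophils. The 3 genes are also gate genes, since leukocytes with 15 or more tumor-marker UMIs per 10000 were left out and tumor cells needed at least that many. The gates therefore bound these estimates, and the size of that effect was not tested. Within MSA-2 neutrophils it would account for 87.5% of the Mcm3 UMIs but for 19.1% of those of Slbp, which binds the stem-loop of histone mRNAs, and for 43.9% of those of Pcna. The fibroblast gate had no limit on tumor markers and was high in the 3 genes, with Ccn1 at 847 CPM against 720 CPM in untreated tumor cells. Gng11 stood at 30.9% of the tumor level there in untreated and 29.1% in MSA-2 tumors, and Tm4sf1 at 39.2% and 54.6%. Whether fibroblasts express these genes or hold tumor RNA was not tested, so no estimate is given for them. The part of tumor RNA in the fibroblast sums is therefore not known.

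**Figure D1:**
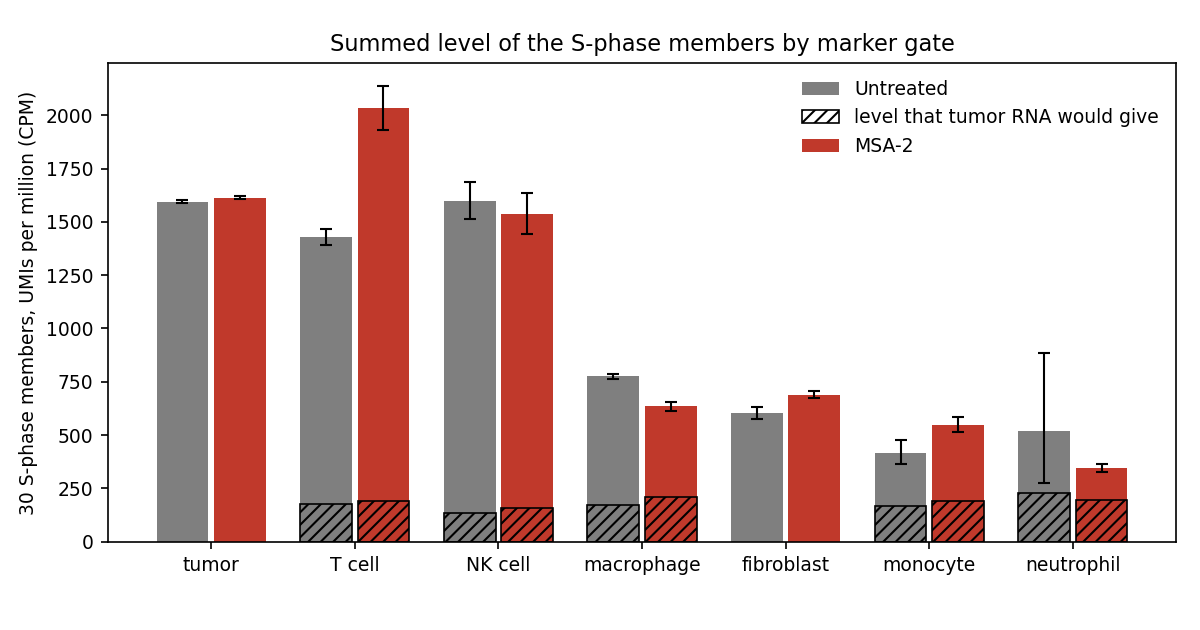
Summed CPM of the 30 members (vertical axis) in each marker gate of the untreated (grey) and MSA-2 (red) library; whiskers are exact 95% Poisson intervals of counting error, and hatching is the level that tumor RNA would give, drawn where it could be estimated. T cells stand at 1428 CPM before and 2032 CPM after MSA-2, while the tumor bars stand at 1595 and 1613.

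The sum was higher after MSA-2 in T cells, lower in macrophages, slightly higher in fibroblasts and nearly level in tumor and NK cells. As log2 of MSA-2 over untreated, with a conditional binomial interval, the T cell ratio was 0.51 (0.43 to 0.59), the macrophage ratio -0.29 (-0.34 to -0.23) and the fibroblast ratio 0.19 (0.12 to 0.27). The NK ratio was -0.06 (-0.18 to 0.06), an interval that holds 0, and it was 0.02 with edgeR's TMM scaling. In tumor cells it was 0.02 (0.01 to 0.02), and it turned to -0.06 with TMM scaling, so no direction is given for them. TMM scaling moved all genes by 0.13 in macrophages and by 0.20 in fibroblasts, and relative to that shift their sums stood at -0.16 and 0.39, with the ratio of each member in these gates moved upward by the same amount. Without the shared barcodes the ratios were 0.01 in tumor cells, 0.51 in T cells, -0.04 in NK cells, -0.29 in macrophages and 0.20 in fibroblasts. With tumor RNA subtracted they were 0.56 in T cells, -0.09 in NK cells and -0.50 in macrophages. A stricter marker gate, with 582 untreated and 70 MSA-2 T cells, gave 0.27 in T cells. In NK cells it gave sums of 1669 CPM on 68 untreated and 1927 CPM on 41 MSA-2 cells, so the NK sum was higher after MSA-2 there. With that gate Clspn at -0.44, Fen1 at -0.41 and Uhrf1 at -0.43 went below 0 in T cells.

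Dividing cells were counted next. Because depth differed between gates, each cell was thinned to 1500 UMIs, and a cell was counted as an S-phase cell when at least 3 of the 30 members then had a UMI. In tumor cells 1705 of 6190 untreated cells (27.5%, Clopper-Pearson interval 26.4% to 28.7%) and 2051 of 6606 MSA-2 cells (31.0%, 29.9% to 32.2%) met this rule. In T cells the share was 18.5% (16.3% to 21.0%; 202 of 1090) in untreated and 28.4% (20.9% to 36.8%; 38 of 134) in MSA-2 tumors, and on the log2 scale the ratio was 0.61 (0.07 to 1.12). NK cells stood at 22.0% (15.5% to 29.7%) and 23.6% (15.2% to 33.8%), which do not differ beyond counting error. Macrophages went from 9.29% (8.33% to 10.3%) to 6.79% (5.24% to 8.64%), which is -0.45 on the log2 scale (-0.87 to -0.05), and fibroblasts from 7.05% (4.08% to 11.2%) to 5.70% (4.05% to 7.77%), where the share goes against the summed level and no order is read. In the types that should hold few dividing cells the rule was met by 0.725% of untreated monocytes (1 of 138), by 3.33% of MSA-2 monocytes and by 1.58% of MSA-2 neutrophils, all below the shares of the 5 gates. These types held member RNA, so their shares are not those of cells without it. Tumor RNA would account for 9.97% of the Pcna UMIs of MSA-2 monocytes and 19.1% of the Slbp UMIs of MSA-2 neutrophils. Free RNA of other cells was not estimated, and the source of the rest was not tested. Only 4 untreated neutrophils were deep enough, so they give no background. Median depths before thinning were 19686 and 19496 UMIs in tumor cells, 3284 and 4063 in T cells, 5626 and 5042 in macrophages, 3719 and 3981 in monocytes, and 1810 in MSA-2 neutrophils.

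Thinning left out 71 untreated and 55 MSA-2 tumor cells, 35 and 4 T cells, 3 and 1 NK cells, 95 and 30 macrophages, 6 and 18 fibroblasts, 2 and 17 monocytes, and 15 and 518 neutrophils. Without it the shares were 90.0% and 93.1% in tumor cells, 44.4% and 64.5% in T cells, 56.9% and 71.1% in NK cells, 45.9% and 41.9% in macrophages, 60.1% and 71.4% in fibroblasts, 22.1% and 30.2% in monocytes, and 2.78% in MSA-2 neutrophils, and these shares are not comparable between gates of different depth. The class is a range of a score and not a cell type. Close to its lower edge, 17.6% of untreated and 21.6% of MSA-2 tumor cells, 19.3% and 24.6% of T cells, and 13.7% and 13.4% of macrophages had exactly 2 members. With at least 4 members required, the log2 ratio was 0.05 in tumor cells, 0.80 in T cells and -0.92 in macrophages.

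**Figure D2:**
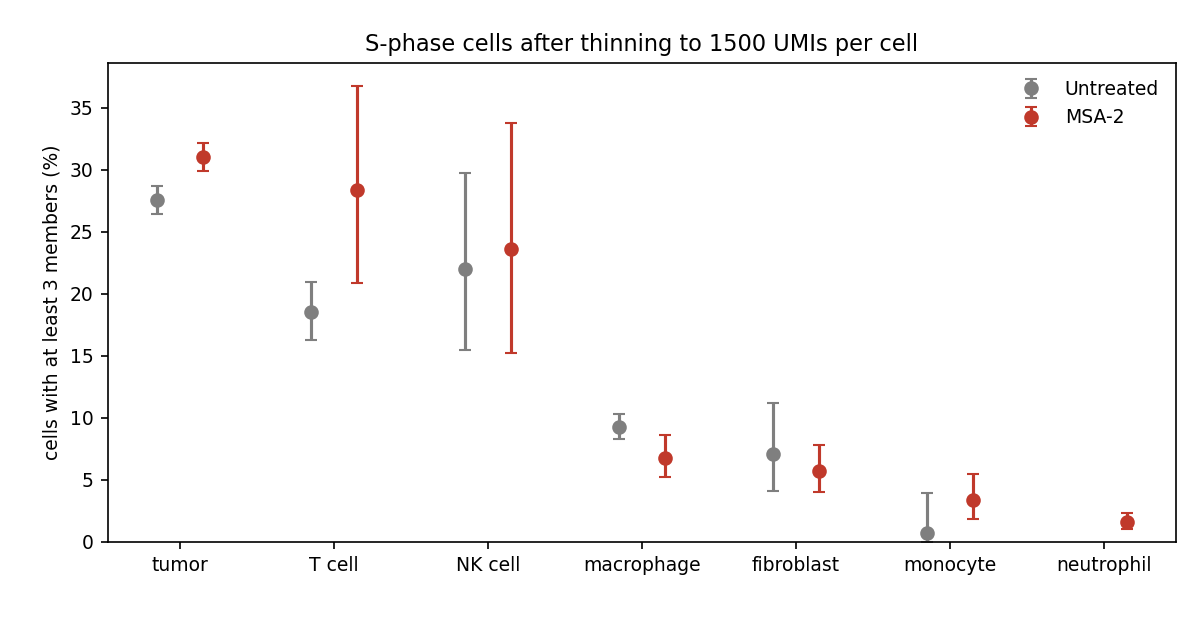
Share of cells in which at least 3 of 30 members had a UMI after thinning to 1500 UMIs (vertical axis, %), by gate, for untreated (grey) and MSA-2 (red); whiskers are exact 95% binomial intervals, and untreated neutrophils are not drawn. T cells stand at 18.5% and 28.4%, above monocytes at 0.725% and 3.33% and MSA-2 neutrophils at 1.58%.

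The same thinned cells were read for the 30 genes of the G2 and mitosis list, again with at least 3 genes required. Of untreated S-phase cells, 53.8% also met the mitosis rule in the tumor gate, 44.1% in the T cell gate and 33.0% in the macrophage gate. In MSA-2 these shares were 53.0%, 63.2% and 14.8%. The macrophage shares rest on 103 of 312 and 9 of 61 cells and the T cell shares on 89 of 202 and 24 of 38, and the differences were not tested. Cells with members alone made up 10.4% of T cells in both libraries (113 and 14 cells), and 6.22% and 5.79% of macrophages, so those shares lay close together between libraries. The share that met the mitosis rule, with or without members, went from 16.1% to 32.8% in T cells, from 10.1% to 6.35% in macrophages and from 30.7% to 39.2% in tumor cells. Types that should hold few dividing cells met it in 5.07% of untreated and 4.89% of MSA-2 monocytes. In MSA-2 neutrophils the share was 4.87% (3.83% to 6.11%). The interval of MSA-2 macrophages (4.84% to 8.15%) overlaps that of these neutrophils.

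The 6 helicase subunits form the ring that unwinds the template. Their summed level was 328 and 340 CPM in untreated and MSA-2 tumor cells, 359 and 464 in T cells, 419 and 404 in NK cells, 172 and 113 in macrophages, and 112 and 141 in fibroblasts. The log2 ratio was 0.37 (0.20 to 0.54) in T cells and -0.60 (-0.73 to -0.47) in macrophages. All 6 subunits were lower in macrophages, as were 8734 of 14419 genes there. Tumor RNA would account for 18.1% (Mcm5) to 24.8% (Mcm2) of the subunits' UMIs in untreated macrophages. In MSA-2 macrophages it would account for 34.4% (Mcm5) to 42.4% (Mcm7). Mcm6 had 74.8 and 83.5 CPM in tumor cells, 106 and 115 in T cells, 134 and 136 in NK cells, 35.9 and 27.9 in macrophages, and it had 71 and 331 UMIs in fibroblasts, 0.41 (0.04 to 0.80). Its level moved little in lymphocytes. Mcm7, whose promoter window is printed above, had 61.6 and 78.9 CPM in tumor cells, 61.5 and 110 in T cells, 67.1 and 90.0 in NK cells, 32.9 and 24.1 in macrophages and 21.8 and 36.9 in fibroblasts. Its ratios were 0.36 (0.32 to 0.40) in tumor cells, 0.84 (0.46 to 1.20) in T cells and 0.76 (0.36 to 1.17) in fibroblasts, and macrophages alone went the other way at -0.45 (-0.74 to -0.17). The ring is built of equal parts, yet the RNAs of its subunits did not keep 1 ratio. Mcm3 went from 72.8 to 62.4 CPM in tumor cells, -0.22 (-0.26 to -0.18), opposite to Mcm7 in the same cells, and from 41.7 to 20.9 CPM in macrophages, a fold of 0.501 with a log2 interval of -1.31 to -0.70.

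Cdc6 and Cdt1 load the ring onto origins, and Cdc45 and the GINS subunit Gins2 turn it into an active helicase. Summed over these 4, the level was 98.2 and 113 CPM in tumor cells, 62.8 and 104 in T cells, 67.1 and 77.8 in NK cells, 59.7 and 52.8 in macrophages and 33.4 and 48.4 in fibroblasts. Cdc45 had 30.4 and 40.2 CPM in tumor cells, 0.40 (0.34 to 0.46), 18.5 and 35.2 in T cells, 0.93 (0.23 to 1.58), and 9.31 and 5.83 in macrophages, -0.68 (-1.29 to -0.11), where tumor RNA would account for 35.2% and 89.3% of its UMIs. Cdc6 was higher after MSA-2 in all 5 gates, with intervals that exclude 0 in tumor cells, T cells and fibroblasts. Its level was 13.9 and 15.7 CPM in tumor cells, 6.63 and 25.8 in T cells, 12.2 and 18.3 in NK cells, 9.01 and 10.6 in macrophages and 3.17 and 8.43 in fibroblasts. The T cell ratio of 1.96 (1.04 to 2.84) rests on 29 and 19 UMIs, and the fibroblast ratio of 1.41 (0.42 to 2.59) on 9 and 84. Cdt1 was level in T cells at 24.9 and 24.4 CPM and in macrophages at 23.4 and 25.1. Gins2 had 12.8 and 19.0 CPM in T cells, an interval of -0.39 to 1.43, and 17.9 and 11.3 in macrophages, -0.67 (-1.10 to -0.26).

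At the fork, Pcna encodes the sliding clamp, Pclaf a protein bound to it, Prim1 the catalytic subunit of primase, Fen1 the flap endonuclease and Clspn a checkpoint adaptor. Pcna was the other member that was higher in all 5 gates, at 112 and 124 CPM in tumor cells, 124 and 165 in T cells, 138 and 140 in NK cells, 138 and 163 in macrophages and 58.1 and 69.6 in fibroblasts. Its ratio was 0.15 (0.12 to 0.18) in tumor cells, 0.41 (0.12 to 0.70) in T cells and 0.25 (0.13 to 0.36) in macrophages, and the NK interval (-0.39 to 0.44) holds 0. Pclaf moved against Pcna in tumor cells and macrophages and with it in the other 3 gates. It went from 111 to 93.9 CPM in tumor cells, -0.24 (-0.27 to -0.21), from 105 to 221 CPM in T cells, 1.08 (0.81 to 1.34), and from 51.3 to 32.3 CPM in macrophages, -0.67 (-0.91 to -0.42). Prim1 had 41.2 and 34.3 CPM in tumor cells, -0.26 (-0.32 to -0.21), and 32.7 and 39.3 in T cells, 0.27 (-0.36 to 0.85). Fen1 had 30.1 and 34.8 CPM in tumor cells and 7.74 and 12.9 in fibroblasts. Clspn had 38.8 and 44.7 CPM in T cells and 12.4 and 6.43 in macrophages, the latter -0.95 (-1.53 to -0.41), with 34.6% and 72.4% of the macrophage UMIs at the level of tumor RNA.

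Nucleotide supply was the most abundant role by UMIs in tumor cells, at 562 CPM before and 550 CPM after MSA-2. It was 424 and 606 CPM in T cells, 516 and 454 in NK cells, 175 and 124 in macrophages and 227 and 219 in fibroblasts. Dut, the dUTPase that keeps uracil out of DNA, held 43572 of the 218359 member UMIs of untreated tumor cells, at 318 and 314 CPM. It stood at 248 and 336 CPM in T cells, 0.44 (0.23 to 0.64), 265 and 249 in NK cells, 75.4 and 60.9 in macrophages and 117 and 109 in fibroblasts. Rrm1 and Rrm2 encode the subunits of ribonucleotide reductase. In T cells Rrm1 went from 45.0 to 77.3 CPM, 0.78 (0.33 to 1.21), and Rrm2 from 41.1 to 59.7 CPM, 0.54 (0.03 to 1.02), but the stricter gate turned Rrm2 to -0.48. In tumor cells Rrm1 was level at 57.5 and 58.4 CPM while Rrm2 went from 85.2 to 76.4 CPM. Thymidine kinase Tk1 was the only member clear of 0 on the lower side in NK cells, from 57.3 to 30.5 CPM, -0.91 (-1.74 to -0.13), and thymidylate synthase Tyms went from 25.7 to 14.1 CPM in macrophages, -0.87 (-1.25 to -0.50).

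Among the genes of chromatin and repair, Slbp was the most abundant and was also the least tied to the dividing gates, with 41.8 CPM in MSA-2 monocytes and 39.5 CPM in MSA-2 neutrophils. It had 70.6 and 62.8 CPM in tumor cells, 111 and 129 in T cells, 109 and 76.3 in NK cells, 47.6 and 38.8 in macrophages and 32.7 and 40.3 in fibroblasts. Hells, a chromatin remodeler needed for DNA methylation, was higher in 4 of the 5 gates. Its level went from 36.7 to 51.1 CPM in tumor cells, 0.48 (0.43 to 0.53), from 37.0 to 80.0 in T cells, 1.11 (0.66 to 1.55), from 21.9 to 47.3 in NK cells, 1.11 (0.22 to 2.03), and from 10.9 to 15.1 in fibroblasts, 0.46 (-0.10 to 1.07). Only macrophages stood lower, at 11.9 and 9.85 CPM, with an interval of -0.74 to 0.18, and tumor RNA would account for 33.3% and 67.2% of its UMIs there. Uhrf1, which binds newly copied methylated DNA, had 42.1 and 48.1 CPM in tumor cells and 36.6 and 19.8 in NK cells. The histone chaperone subunit Chaf1b lay between 8.04 and 25.4 CPM across the 5 gates. Exo1, an exonuclease of mismatch repair, went from 6.17 to 17.6 CPM in T cells on 27 and 13 UMIs, and Ung, which removes uracil from DNA, from 6.20 to 3.01 CPM in macrophages on 126 and 15 UMIs.

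The regulators did not move as a block. The inner kinetochore gene Cenph, the most abundant of them in tumor cells at 34.3 and 32.2 CPM, had 19.7 and 10.8 CPM in T cells, with an interval of -2.11 to 0.19. Cyclin E1 (Ccne1), which opens S phase with its kinase, went from 22.3 to 19.7 CPM in tumor cells, -0.18 (-0.25 to -0.10). It was higher in 3 other gates, from 15.1 to 38.0 CPM in T cells, 1.33 (0.64 to 1.99), on 305 and 123 UMIs in macrophages, 0.72 (0.40 to 1.03), and from 7.39 to 14.2 in fibroblasts, 0.94 (0.27 to 1.67), and lower in NK cells, from 14.6 to 9.15 CPM on 12 and 6 UMIs, with an interval of -2.38 to 0.85. Cyclin E2 (Ccne2) had 3.94 and 7.23 CPM in macrophages, 0.88 (0.27 to 1.46). The repressor E2f8 had the highest ratio of all members in tumor cells, from 8.57 to 12.2 CPM, 0.51 (0.40 to 0.61), and with 2 and 5 UMIs it was the only member under 10 UMIs in NK cells.

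**Figure D3:**
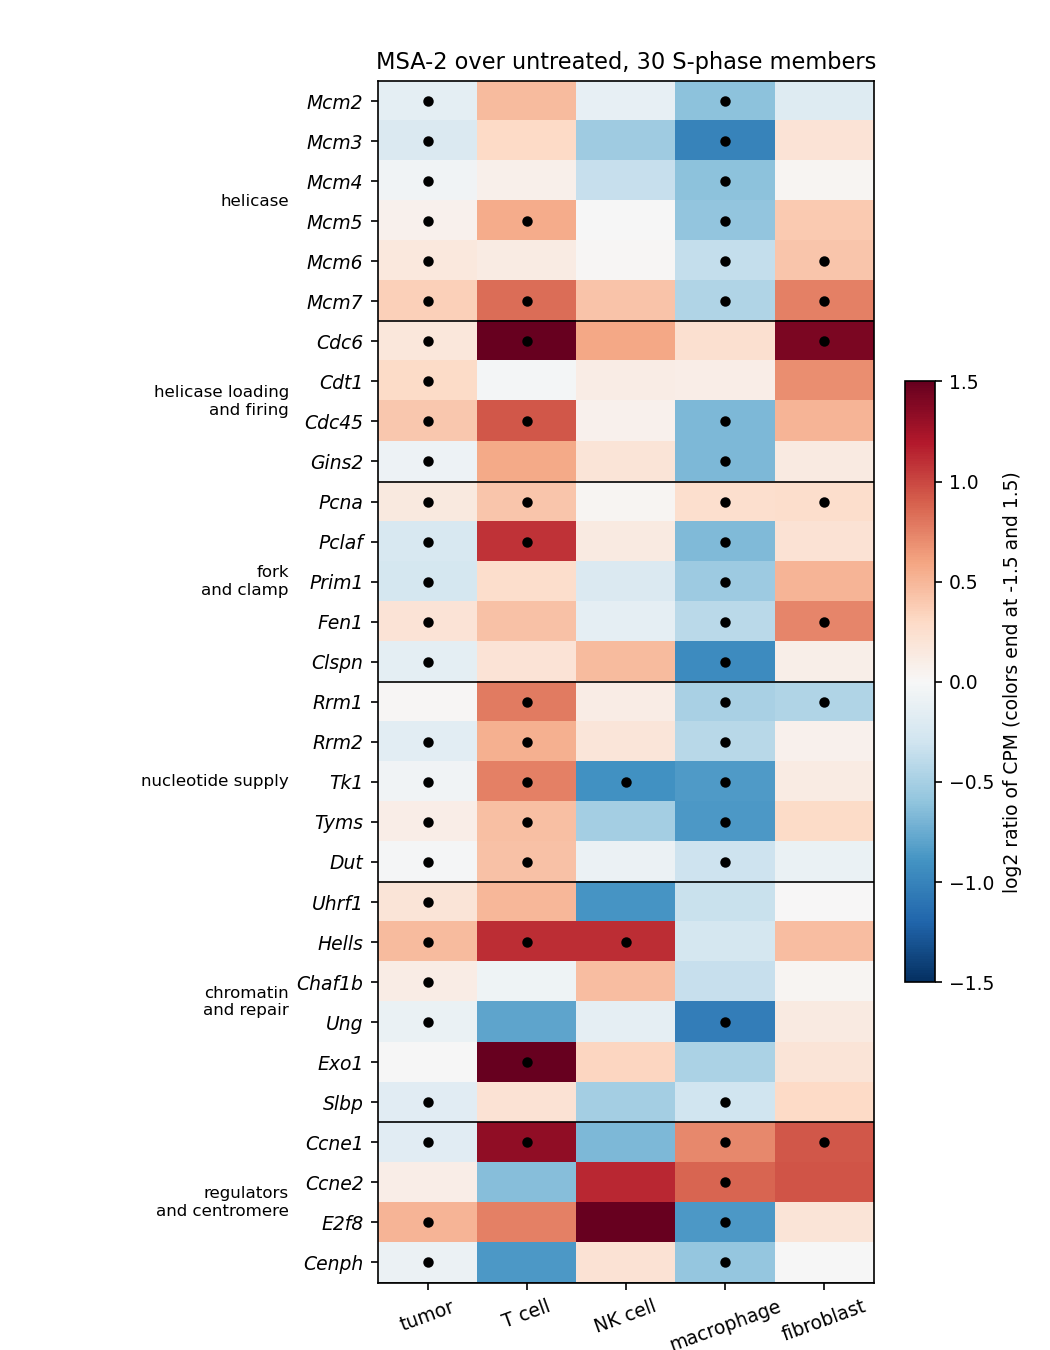
Log2 ratio of MSA-2 over untreated CPM (color) for each of the 30 members (rows, by role) in 5 gates (columns); a dot marks an exact 95% interval that excludes 0, counting error only. The T cell column is mostly red and the macrophage column mostly blue, with Pcna, Cdc6, Cdt1, Ccne1 and Ccne2 as its 5 red cells.

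Counted over members with 1 CPM added to each value, none of the 30 moved by 1.5-fold in tumor cells, where 7.29% of all genes were higher and 5.47% lower by that much. In this gate 15 members were higher and 15 lower, against 11045 and 8614 of 19659 genes, or 13 and 17 with TMM scaling. At these deep counts 27 members had intervals clear of 0, and no share of all genes by this rule is given. The median log2 ratio was 0.01, against 0.03 over all genes. In T cells 10 of 30 members were higher and 2 lower by 1.5-fold, against 14.7% and 22.3% of all genes. At any fold 25 members were higher, against 5063 of 11828 genes. The members' median was 0.45, while that of all genes was -0.10. TMM scaling gave 14 and 2 members past the fold, with no share of all genes under TMM beside them. In NK cells, where 29 of 30 members reached 10 UMIs, 2 were higher and 3 lower by 1.5-fold, against 15.2% and 20.8% of all genes, with a median of 0.03 and -0.08 over all genes. In macrophages 2 were higher and 9 lower, against 11.4% and 14.2% of all genes, with medians of -0.45 and -0.12. At any fold 25 members were lower, against 8734 of 14419 genes. TMM scaling left 6 lower by 1.5-fold there, again with no share of all genes under TMM. In fibroblasts 6 of 30 were higher and 0 lower by 1.5-fold, against 12.7% and 20.5% of all genes, with medians of 0.21 and -0.17. TMM scaling gave 11 higher. Since TMM moves all genes of a gate by the same amount, member counts under it are not comparable with the shares of all genes printed here. Of the 30 members, 2 (Pcna and Cdc6) were higher in all 5 gates, 0 were lower in all 5, and 13 had intervals clear of 0 in opposite directions in different gates. These patterns have no share of all genes beside them, so nothing particular to the members is read from their counts.

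Tumor cells differed in how the members were spread rather than in their sum. The median cell held 903 CPM of members in the untreated library and 1249 CPM in the other, the lower quartile 510 and 662, and the upper quartile 1943 and 1980. At the 95th percentile the order turned, at 3603 CPM before and 3182 CPM after MSA-2. The tenth of cells with the most member UMIs held 38.8% of them in untreated and 33.9% in MSA-2 tumors. With every cell given equal weight, the log2 ratio of the mean was 0.09. In T cells the median cell went from 774 to 1198 CPM and the 95th percentile from 3575 to 4505, and the lower quartile from 422 to 594, while at the 99th percentile untreated T cells stood higher, at 6064 against 5729 CPM. In macrophages the medians were alike at 494 and 492 CPM, the upper quartile went from 849 to 809 and the 95th percentile from 2211 to 1660.

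**Figure D4:**
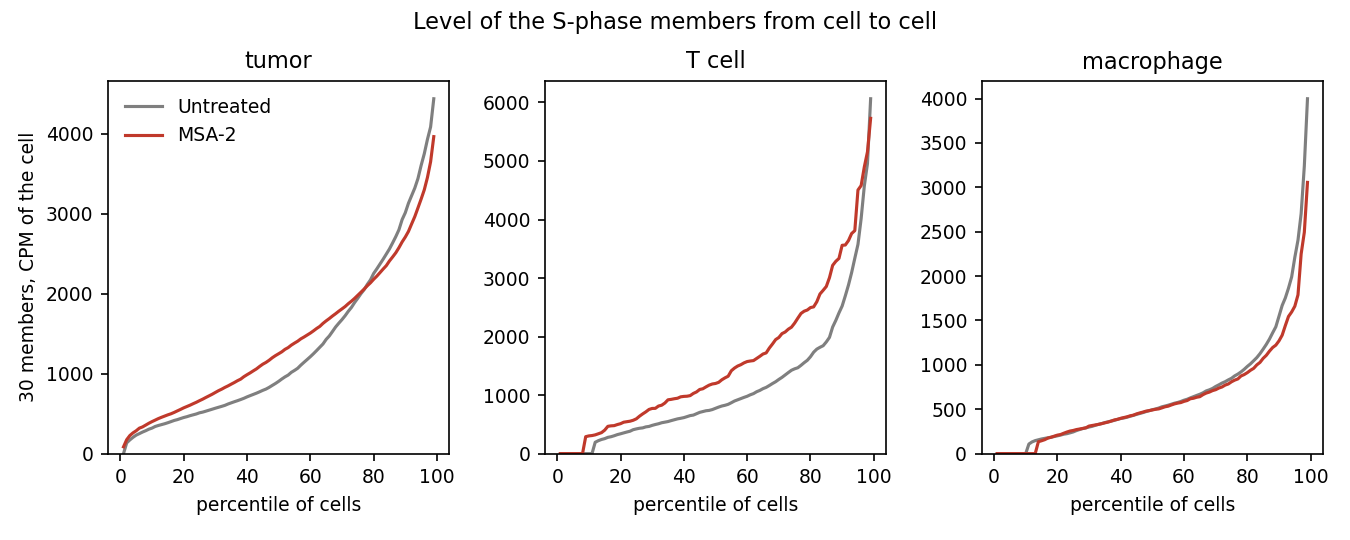
CPM of the 30 members in each cell (vertical axis) by percentile of cells (horizontal axis) in the tumor, T cell and macrophage gates of the untreated (grey) and MSA-2 (red) library. The tumor curves cross, with medians of 903 and 1249 CPM and 95th percentiles of 3603 and 3182, and the macrophage curves have alike medians (494 and 492 CPM) and 95th percentiles of 2211 and 1660.

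Members were found in the same cells. For each member, its level in cells with at least 3 other members after thinning was divided by its level in cells with none of the others. In untreated tumor cells this ratio was above 1 for all 30 members, from 2.19 for Dut to 8.69 for Cdc6, with a median of 4.38. In MSA-2 tumor cells it was again above 1 for all 30, but the median was 2.72, and the contrast was smaller for the abundant clamp gene Pcna (2.96 and 2.32) and for Cdc6 (8.69 and 3.95). The medians were 5.97 and 2.83 in T cells, where 25 of 30 members had a ratio in MSA-2 and 23 of these were above 1, and 5.32 and 3.80 in macrophages. Rrm2, Cenph, Chaf1b, E2f8 and Ccne2 had 0 UMIs in MSA-2 T cells without other members. They have no ratio for this reason, and the median leaves out these contrasts, which would lie above it. In macrophages Pcna had 116 CPM before and 153 CPM after MSA-2 in cells without any other member, against 293 and 267 CPM in cells with at least 3 others. A cell without UMIs of the other members after thinning may still hold their RNAs. Cells of 1 library share their preparation and free RNA, and no weight is placed on these ratios as replicates. Genes other than the members were not read this way. The counts above 1 have no share of all genes beside them, so nothing particular to the members is read from them.

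T cells held fewer cells after MSA-2 but more member UMIs in each, 5.56 per untreated and 10.9 per MSA-2 cell, at a median depth of 3284 and 4063 UMIs. Where Cd8a or Cd8b1 was detected, 137 of 705 untreated (19.4%, 16.6% to 22.5%) and 28 of 86 MSA-2 cells (32.6%, 22.8% to 43.5%) were S-phase cells, and the members' sum was 1405 and 2011 CPM. Where Foxp3, the factor of regulatory T cells, was detected, 26 of 74 untreated cells (35.1%, 24.4% to 47.1%) were S-phase cells, and 6 such cells in MSA-2 are too few to compare. Markers of other cells moved in the same gate. Summed CPM of the 9 macrophage markers went from 1054 (Apoe the highest, at 601) to 228, with Mrc1 at 0 in MSA-2, and that of the 10 neutrophil markers from 53.9 to 545, with S100a9 at 260 and Ly6g at 0 in both. The 4 tumor markers went from 405 to 521 CPM. Neutrophil markers also went from 7.06 to 490 CPM in tumor cells (S100a9 at 219), from 8.53 to 956 CPM in NK cells (S100a9 at 465, Csf3r and Ly6g at 0), from 125 to 829 in macrophages (S100a9 at 337) and from 34.1 to 813 in fibroblasts (S100a9 at 348). Macrophage markers went from 729 to 209 CPM in tumor cells (Apoe at 411 and 108), from 807 to 241 in NK cells (Apoe at 450 and 110) and from 829 to 306 in fibroblasts (Apoe at 478 and 172), where the gate's own 5 markers went from 27757 to 15169. The part of these shifts in the members' ratios was not tested.

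In macrophages 21 members had intervals below 0 and 3, Pcna, Ccne1 and Ccne2, intervals above 0, and these 3 had intervals above 0 in monocytes as well. Most genes stood lower in this gate, 8734 of 14419 with a median of -0.12, but no share of all genes by interval is given. Because Pcna was the most abundant member there, with 17.8% of all member UMIs before and 25.7% after MSA-2, it held the sum up, and without it the log2 ratio was -0.43. In monocytes Pcna went from 57.1 to 147 CPM, 1.36 (0.83 to 1.95), Cdt1 from 12.9 to 30.1, 1.22 (0.09 to 2.60), Ccne1 from 12.9 to 32.8, 1.35 (0.22 to 2.72), and Ccne2 from 1.84 to 16.9 CPM on 1 and 32 UMIs, 3.20 (0.62 to 8.55). Helicase genes did not follow them there, at 92.1 and 73.0 CPM with an interval of -0.81 to 0.16, and 3.33% of MSA-2 monocytes were S-phase cells. Tumor RNA would account for 9.97% of the Pcna UMIs of MSA-2 monocytes and for 9.85% of those of MSA-2 macrophages, the lowest of the 30 members there, with Cdc45 the highest at 89.3%. The 5 monocyte markers made up 642 CPM of untreated macrophages and 1337 CPM of those after MSA-2, with Ms4a4c the highest at 358 and 725 and none at 0. With a stricter gate of 2639 and 589 macrophages, the Pcna ratio was 0.06 and the Cdt1 ratio -0.27, while the members' sum stood at -0.46. In the monocyte gate S100a8 went from 12.9 to 839 CPM, S100a9 from 0 to 433, Apoe from 1493 to 609 and Ccr2 from 468 to 149. The part of these shifts, and of monocyte-like cells among macrophages, in the members' values was not tested.

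**Figure D5:**
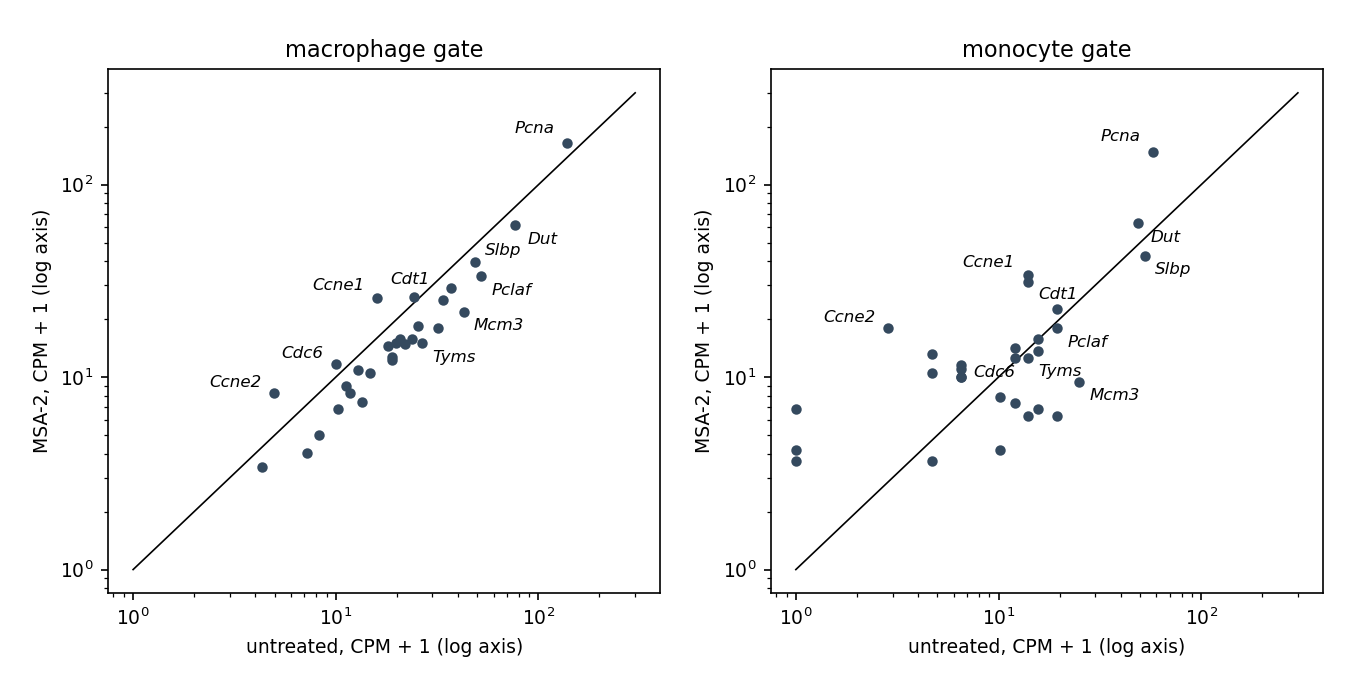
CPM plus 1 of each of the 30 members in untreated (horizontal, log axis) and MSA-2 (vertical, log axis) cells of the macrophage and monocyte gates; the line marks equal levels and 10 members are named. Pcna lies above the line in both, at 138 and 163 CPM in macrophages and 57.1 and 147 CPM in monocytes, and Mcm3 lies below it in both.

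Other genes of replication, listed beside the members by function, gave a similar order of the gates. Over 54 such genes the summed level was 1883 and 1960 CPM in tumor cells, 1860 and 2160 in T cells, 1931 and 1813 in NK cells, 1001 and 812 in macrophages and 826 and 852 in fibroblasts. In T cells 15 of 54 were higher and 3 lower by 1.5-fold with a median of 0.32, against 14.7% and 22.3% of all genes. In macrophages 0 of 54 were higher and 7 lower with a median of -0.32, against 11.4% and 14.2% of all genes, so the list had no larger share past the fold there. The most abundant of the list in T cells, the chromatin ATPase Atad2, went the other way, from 190 to 96.3 CPM, -0.98 (-1.35 to -0.63), and from 216 to 82.4 CPM in NK cells. Mcm10, which joins the helicase to polymerase, had the highest ratio in T cells, from 9.60 to 28.5 CPM, and in fibroblasts, from 1.76 to 5.02. In tumor cells the GINS subunit Gins1 was highest, from 7.74 to 15.2 CPM, 0.97 (0.87 to 1.08). In macrophages the histone chaperone Asf1b went from 14.2 to 5.42 CPM, -1.39 (-2.01 to -0.82).

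Genes that gate entry into S phase were mixed. Of 29 such regulators, 10 were higher and 3 lower by 1.5-fold in T cells, with a median of 0.31, against 14.7% and 22.3% of all genes. In macrophages 2 were higher and 5 lower, with a median of -0.13, close to the -0.12 of all genes, of which 11.4% were higher and 14.2% lower. Myc, a driver of entry into the cycle, had the highest ratio in T cells, from 42.0 to 141 CPM, 1.75 (1.38 to 2.10), and in NK cells, from 70.7 to 233, 1.72 (1.28 to 2.18). The inhibitor Cdkn1a had the lowest in T cells, from 152 to 67.8 CPM, -1.16 (-1.61 to -0.75), and the highest in fibroblasts, from 181 to 311, 0.78 (0.65 to 0.92). In macrophages E2f2 was lowest, from 14.5 to 4.42 CPM, -1.71 (-2.41 to -1.09), and cyclin D3 (Ccnd3) highest, from 28.1 to 63.1, 1.17 (0.96 to 1.37). In tumor cells the most abundant regulator, cyclin D1 (Ccnd1), was level at 398 and 385 CPM, and Cdkn1c was lowest, from 4.47 to 0.790 CPM, -2.50 (-2.80 to -2.22).

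The G2 and mitosis list had larger ratios than the members in T cells and macrophages. Its sum went from 1864 to 3342 CPM in T cells, 0.84 (0.78 to 0.91), against 0.51 for the members, and from 880 to 561 CPM in macrophages, -0.65 (-0.71 to -0.59), against -0.29. In macrophages Pcna held the members' sum up, and the medians lay closer together, at -0.52 for the list and -0.45 for the members. In T cells the medians were 0.88 and 0.45. In T cells all 30 genes were higher, against 5063 of 11828 among all genes, and 20 passed 1.5-fold upward, against 14.7%. Cdc20, the activator of the anaphase ubiquitin ligase, went from 34.7 to 121 CPM and the most abundant gene, Top2a, from 217 to 324. In macrophages 29 of 30 were lower, against 8734 of 14419 among all genes, Bub1 being the exception at 8.72 and 9.04 CPM. NK cells had 1406 and 1781 CPM of mitosis genes, 0.34 (0.22 to 0.46), beside a members' sum of -0.06 (-0.18 to 0.06), and tumor cells 2213 and 2393 CPM, 0.11 (0.11 to 0.12). In fibroblasts it went from 967 to 906 CPM, -0.09 (-0.16 to -0.03), against 0.19 for the members, and with the TMM shift of 0.20 the direction of the list turns. The difference between the 2 lists was not tested.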

How the data were processed

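Droplet 3′ single-cell libraries of untreated and MSA-2–treated MC38 tumors were analysed, 1 per group. The counts deposited by the authors are raw UMIs of barcodes left by their own quality filter, and the numbers of barcodes are those the methods give. The submitters' processing notes name Cell Ranger 7.0.0, Seurat 4.3.0 and mm10, while the file headers give Cell Ranger 7.0.1 and the methods name later versions of both programs. Removal of doublets is not stated in the sources used here.

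Cells needed 500 or more detected genes and no more than 20% of UMIs from mitochondrial genes, and doublets called by Scrublet in scanpy 1.11.5 (0.8% per 1000 barcodes) were removed. A cell entered a gate when it had enough distinct markers (2 to 4) and a minimum share of marker UMIs, from 5 per 10000 UMIs of the cell for T and NK cells to 200 for neutrophils. NK cells had no Cd3e, Cd3d, Cd3g or Trac UMI, leukocytes had tumor markers below 15 per 10000, monocytes had macrophage markers below 50 per 10000, and tumor cells met no other gate. The stricter gate needed 1 more marker and other markers below 50% of their own threshold, except between related types. Cells meeting several gates (36 untreated, 34 MSA-2) were left out. Thresholds were set after the marker distributions had been seen, without use of the members. The members and lists were chosen with earlier results of these data known.

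UMIs were summed per gate and scaled to CPM. Exact 95% intervals are Poisson for sums, Clopper-Pearson for shares and conditional binomial for ratios. They cover counting error only, and no p-value was computed. Counts past 1.5-fold (0.58 on the log2 scale) and list medians use log2 of CPM plus 1 for genes reaching 10 UMIs over the 2 libraries. Members were described by role, starting with the most abundant of each role. Mcm2, Mcm4 and Mcm5 enter through the helicase sum and the counts, without levels of their own. Of each comparison list the counts in each direction, the most abundant gene and the genes with the highest and lowest ratio among those with at least 50 UMIs were eligible, and not all are printed. Genes named beyond this rule were chosen after their values had been seen. Thinning used a fixed seed of 1. Analyses used Python 3.11.15, pandas 2.3.3, scipy 1.17.1, numpy 2.4.6 and matplotlib 3.10.9, with R 4.3.3 and edgeR 4.0.16 for TMM factors. The ratio and thinning code was tested on simulated counts. Alternatives covered the cell filter, doublets, gates, weighting, scaling, thinning, shared barcodes, tumor RNA, filter and added CPM.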

Additional observations from a re-analysis of the deposited data

Results flagged for a closer look

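The summed level of the 30 members moved in opposite directions between gates under the same treatment, with intervals of counting error that exclude 0. On the log2 scale, MSA-2 stood above untreated by 0.51 in T cells and 0.19 in fibroblasts, and the macrophage ratio was -0.29. The tumor ratio was 0.0156, and no direction is given for it. With 1 library per group the difference between gates was not tested, and the tumor value turned negative with TMM scaling. Gate composition, free RNA and depth moved as well. With tumor RNA subtracted, T cells stood at 1252 and 1843 CPM and macrophages at 603 and 426 CPM in untreated and MSA-2 tumors. After thinning, S-phase shares had log2 ratios of 0.61 in T cells, 0.17 in tumor cells, -0.31 in fibroblasts and -0.45 in macrophages. The part of gate composition, of RNA from other cells and of depth in the sums was not tested.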

How the results depend on the processing

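Of 83 values obtained under other settings for the sums, shares and medians of the 5 gates, 66 lay within the main interval (for medians, the range between the quartiles of the members), 16 lay outside it and 1 changed direction from a main interval clear of 0. The change of direction was in the tumor sum, -0.0555 with TMM scaling against 0.0156. A stricter marker gate gave sums of 0.00286 in tumor cells, 0.27 in T cells, 0.21 in NK cells, where the main value of -0.06 has an interval that holds 0, and -0.46 in macrophages. TMM scaling gave 0.60 in T cells, -0.16 in macrophages and 0.39 in fibroblasts. Equal weight per cell gave 0.0930 in tumor cells and -0.16 in macrophages. Leaving out the most abundant member gave 0.0248 in tumor cells (without Dut) and -0.43 in macrophages (without Pcna), and subtraction of tumor RNA gave -0.50 in macrophages. For S-phase cells, the tumor ratio was 0.0495 without thinning and 0.0476 with at least 4 members, and the macrophage ratio -0.92 with at least 4 members. With 10 CPM added, the macrophage median was -0.28. The cause of these shifts was not tested. Of 596 values for single members under the cell filter, doublet, gate and barcode settings, 580 lay within the interval, 15 outside it and 1, Rrm2 in T cells at -0.48 under the stricter gate, changed direction from a main interval clear of 0. Members whose main interval holds 0 could change sign without entering that count, as Clspn, Fen1 and Uhrf1 did in T cells and Cdt1 in macrophages. All 16 values outside the interval or reversed came from the stricter gate. TMM scaling was not among these settings, and with it Mcm5 in tumor cells changed direction from a main interval clear of 0.

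The estimate of tumor RNA from Gng11, Tm4sf1 and Ccn1 and the settings for single members were chosen after seeing the data. The planned estimate from keratins could not be run, since Krt7, Krt8, Krt18 and Krt19 are near 0 in the tumor cells. Subtraction was not made in fibroblasts, whose gate is high in the 3 genes from a source that was not tested. No paired analysis was possible because each group has 1 library and no result comes from a test. Depth limits the NK gate, with 1310 and 1007 member UMIs, and the MSA-2 T cells, with 1499.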

Other observations

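Endothelial cells, which enter no comparison of the members above, numbered 58 before and 78 after MSA-2. Their 30 members made up 865 CPM (790 to 945) and 830 CPM (771 to 892), a log2 ratio of -0.06 (-0.23 to 0.11), while the G2 and mitosis list stood at 800 and 1378 CPM, 0.78 (0.63 to 0.94). After thinning, 5 of 56 untreated (8.93%) and 7 of 73 MSA-2 endothelial cells (9.59%) were S-phase cells.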
